A study of Mus musculus with 16 samples.

Results

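Hypoxia response and glycolysis genes were followed across the bud and the mesenchyme of the early mouse kidney. The list holds 34 genes: 15 glycolytic enzymes, and 19 other targets or regulators of the hypoxia-inducible factors (HIFs). A gene was measured where the array had a probe set annotated with its symbol alone, and the brightest such probe set over the 16 arrays stood for the gene. This gave 31 of the 34 genes, 13 enzymes and 18 others, among 18193 genes on the array. No such probe set was found for Gpi1 or Eno1 in the annotation used here, and those of Bnip3l carry several symbols, so these 3 genes have no value.

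HIF is a transcription factor made of an oxygen-regulated alpha subunit, such as HIF1A, and a stable partner, ARNT. In normal oxygen the prolyl hydroxylases of the Egln family mark the alpha subunit for destruction. When oxygen falls the dimer binds DNA at a short core motif and raises genes for glucose uptake, glycolysis, vessel growth, collagen modification and removal of mitochondria.

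Samples came from mouse kidney at the E11.5 stage of gestation, in 4 groups, with separate embryos as replicates per the series text. The ureteric bud (UB), the epithelium that branches into the collecting ducts, was wild type and dissected by hand in 4 samples, each a pool of 3 to 9 buds. Wild-type metanephric mesenchyme (MM), which forms nephrons and stroma, was dissected by hand as individual mesenchymes in 3 samples, numbered 5 to 7. Both followed digestion with collagenase B at 0.5 mg/ml and 37 °C. Wild-type MM was also laser captured from frozen sections of kidney rudiments, 7 µm thick, in 4 samples pooled from 3 to 4 mesenchymes each. MM lacking Hoxa11 and Hoxd11 was laser captured in 5 samples from sections of urogenital ridges, with no pooling of mesenchymes given. Between null and wild-type captures, genotype, source piece and pooling go together and cannot be told apart. The same holds for tissue and pooling between UB and hand-dissected MM. It also holds for isolation, collagenase digestion and pooling between wild-type captures and hand-dissected MM. The labels name no strain, litter or scan date.

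Values are MAS5 signals, a brightness per probe set on a linear scale, from 1 array per sample after 2 rounds of RNA amplification. Array medians ran from 112.7 to 209.2, and a signal below its own array's median is called dim. Hoxa11 averaged 709 ± 147 (SD, n = 4) in wild-type and 124 ± 44.5 (SD, n = 5) in null captures. Null replicate 1 stood apart, with a median correlation to its group of 0.844 against 0.898 to 0.905 for the other null arrays. Signals summed over 8 bud markers ran from 161976 to 206627 in UB and from 2900 to 3115 in hand-dissected MM, but from 10034 to 60585 in wild-type and 11834 to 43959 in null captures. In bulk tissue, a change in how many cells use a gene and a change in RNA per cell cannot be told apart.

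The sequence before the transcription starts is shown first, because the HIF core motif was found at genes that went in both directions between bud and mesenchyme. Of 31 listed genes with a start in the RefSeq promoter table (GRCm38.p6), 29 held ACGTG or GCGTG, on either strand, in the 250 bases before at least 1 start. The genes without it were Gpi1 and Tpi1. These 31 are not the 31 measured genes: Slc2a3, Ndrg1 and Bnip3l have no listed start, while Gpi1 and Eno1 have a start but no signal value. Counted by start, 80.9% of 47 held a core against 38.6% of all 32851 starts, and for ACGTG alone the shares were 53.2% and 16.6%. The palindrome CACGTG gives overlapping matches on both strands. The starts of the listed genes were also richer in CG steps, with a median of 14 against 6. Slc2a1, Ankrd37 and Egln3, higher in the bud, and P4ha2 and Car9, lower there, are printed from 250 bases before the start up to the start, with cores in capitals (CACGT and CACGC where the core is on the other strand).
Slc2a1: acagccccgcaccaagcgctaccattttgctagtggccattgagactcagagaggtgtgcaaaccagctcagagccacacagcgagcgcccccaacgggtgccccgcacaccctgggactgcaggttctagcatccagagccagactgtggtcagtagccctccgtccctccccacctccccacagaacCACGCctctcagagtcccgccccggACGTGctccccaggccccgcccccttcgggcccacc
Ankrd37: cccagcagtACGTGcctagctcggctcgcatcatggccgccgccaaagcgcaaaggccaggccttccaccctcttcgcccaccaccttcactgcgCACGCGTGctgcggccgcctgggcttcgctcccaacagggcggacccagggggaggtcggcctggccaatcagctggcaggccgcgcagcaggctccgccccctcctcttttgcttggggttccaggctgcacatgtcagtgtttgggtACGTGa
Egln3: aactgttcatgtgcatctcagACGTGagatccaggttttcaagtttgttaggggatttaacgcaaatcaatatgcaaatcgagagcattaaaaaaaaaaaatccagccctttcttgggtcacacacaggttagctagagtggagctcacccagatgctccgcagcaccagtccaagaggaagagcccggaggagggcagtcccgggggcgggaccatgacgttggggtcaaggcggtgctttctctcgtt
P4ha2: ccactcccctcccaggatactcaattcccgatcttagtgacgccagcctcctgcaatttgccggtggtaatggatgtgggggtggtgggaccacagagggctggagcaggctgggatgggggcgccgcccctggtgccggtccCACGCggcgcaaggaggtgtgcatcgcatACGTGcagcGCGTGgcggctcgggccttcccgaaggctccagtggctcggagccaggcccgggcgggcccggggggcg
Car9: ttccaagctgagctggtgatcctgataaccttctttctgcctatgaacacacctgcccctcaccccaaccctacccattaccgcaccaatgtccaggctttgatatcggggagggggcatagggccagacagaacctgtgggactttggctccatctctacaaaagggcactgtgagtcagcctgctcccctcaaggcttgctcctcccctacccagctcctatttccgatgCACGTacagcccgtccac
They lie at chr4:119108495-119108744 (plus strand), chr8:45999851-46000100 (minus), chr12:54203875-54204124 (minus), chr11:54100674-54100923 (plus) and chr4:43506776-43507025 (plus). Ankrd37 holds 4 matches, P4ha2 holds 3, Slc2a1 holds 2, and Egln3 and Car9 hold 1 each. By call, a core stood at 77.8% of 18 starts of genes higher in the bud, all 3 starts of genes lower there and 81.0% of 21 starts of genes not called. These shares leave out Slc2a3, called higher, and Ndrg1, called lower, which have no listed start. A match is a string of letters, not a measured binding site.

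RNA signal of the glucose transporters and of several glycolytic enzymes was higher in the bud than in the mesenchyme. That of 4 HIF targets was lower, a share near that of all genes called lower. Of 30 genes tested between hand-dissected UB and MM, 12 were higher and 4 lower in UB (limma, Benjamini-Hochberg adjusted p below 0.05 over all probe sets tested). That is 53.3%, beside 28.5% of all genes tested, which split into 13.9% higher and 14.6% lower. The 12 higher exceed that background, while the 4 lower of 30 are near it. Of the 4, Car9 was kept for testing only through its MM arrays. Of 13 enzymes 6 were higher and 0 lower, with 9 at an unadjusted p below 0.05, all higher, where 41.2% of all genes were below it. Of 17 others 6 were higher and 4 lower. Arrays of the groups did not overlap for 12 genes higher and 5 lower in UB, as for 17.5% and 18.8% of all genes. The median log2 difference was 0.56 for the enzymes and 0.15 for the others, beside 0.01 for all genes. With all 16 arrays in one fit, where 19.3% of all genes were called, Hk2, Aldoa, Pkm, Pdk1, Egln3 and Ddit4 lost their calls. Differences are on the scale log2(signal + 36.3), which understates those of dim genes.

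**Figure D1:**
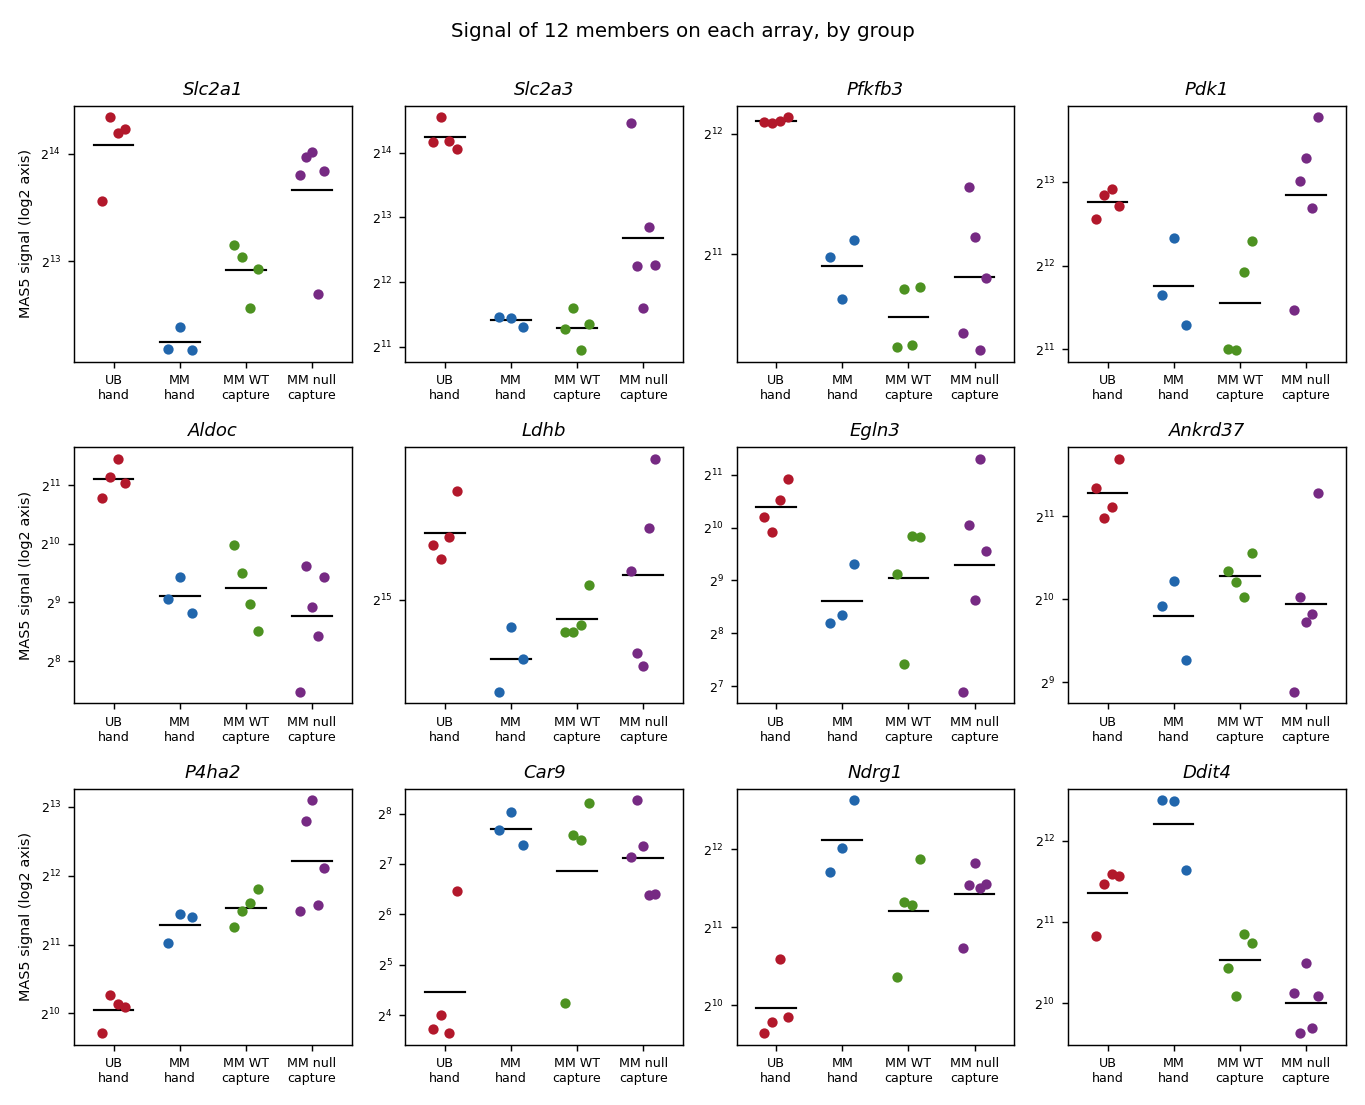
MAS5 signal (log2 axis) on each of the 16 arrays by group, with 1 point per array and a bar at the mean of the log2 signals. Slc2a3 runs from 17034 to 23865 on the UB arrays and from 2540 to 2832 on the hand-dissected MM arrays.

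Both glucose transporters were higher in the bud, and Slc2a3 had the largest difference of the 30 genes. Slc2a3, the high-affinity transporter GLUT3, stood at 18294, 23865, 18522 and 17034 on the UB arrays and at 2832, 2796 and 2540 on the MM arrays. Every UB array was far above every MM array (ratio of means 7.14, log2 difference 2.81 ± 0.17 SE, limma adjusted p = 3.87e-07). Slc2a1, the widely used transporter GLUT1, stood at 12072, 20729, 18725 and 19295 in UB and 4658, 5352 and 4623 in MM. UB replicate 1 was the lowest of its group and still above all of MM (ratio 3.63, log2 difference 1.83 ± 0.20 SE, limma adjusted p = 4.28e-05). The other tested probe sets, 2 for Slc2a1 and 1 for Slc2a3, were also called higher in UB. The probe sets used for Slc2a3, Aldoa, Tpi1, Ldhb, Adm and Ndrg1 carry a suffix, s or x, that marks probes that may also match other genes. Slc16a3, the lactate exporter MCT4, was dim on 3 UB arrays and on all 3 MM arrays and was not tested here.

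Pfkfb3 and Pdk1, which act on the flow through glycolysis and on the fate of pyruvate, were higher in the bud. Pfkfb3, which makes the sugar phosphate that activates phosphofructokinase, stood at 4369, 4359, 4403 and 4495 in UB and 2016, 1585 and 2221 in MM. The UB arrays were nearly equal and all above MM (log2 difference 1.18 ± 0.20 SE, limma adjusted p = 0.00102). Its other tested probe set differed by -0.34 and was not called, and the mean over its probe sets was not called either, at an adjusted p of 0.062. Pdk1, the kinase that keeps pyruvate out of the mitochondrial oxidation route, stood at 6057, 7370, 7723 and 6747 in UB and 3217, 5148 and 2505 in MM. The groups did not overlap (log2 difference 1.00 ± 0.24 SE, limma adjusted p = 0.0112). Without MM replicate 7 the difference was 0.77, with a limma adjusted p of 0.0653. Of the other 2 tested probe sets of Pdk1, 1 was called higher, at 0.61 (limma adjusted p = 0.0498). The other was not called, at 0.95 (0.104).

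Among the enzymes Aldoc, the brain-type aldolase, differed most, at 1758, 2242, 2789 and 2091 in UB and 533, 694 and 451 in MM. All UB arrays were higher (ratio 3.97, log2 difference 1.92 ± 0.24 SE, limma adjusted p = 0.000104). Ldhb, the heart-type lactate dehydrogenase subunit, stood at 40810, 38549, 42222 and 50722 in UB and 22695, 29407 and 25818 in MM. The groups did not overlap (log2 difference 0.73 ± 0.13 SE, limma adjusted p = 0.00175), and its other 3 tested probe sets were also called higher.

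The calls of the remaining 4 enzymes were each lost on leaving out single arrays. Pkm, pyruvate kinase, differed by 0.72 ± 0.18 SE (limma adjusted p = 0.0112), and by 0.61 without MM replicate 7 (0.0635). Hk1, a hexokinase that traps glucose, stood at 2913, 5368, 5413 and 3461 in UB and 2012, 2489 and 1834 in MM (log2 difference 0.97 ± 0.26 SE, limma adjusted p = 0.0188). Its adjusted p was 0.0593 without UB replicate 2, 0.0692 without UB replicate 3 and 0.0848 without MM replicate 7. Aldoa, the main aldolase, differed by 0.56 ± 0.16 SE (limma adjusted p = 0.0252). Leaving out MM replicate 5 or 7 gave 0.0805 or 0.106, and leaving out UB replicate 3 or 4 gave 0.0784 or 0.0656. Hk2, the inducible hexokinase, overlapped between the groups, since UB replicate 4 at 7211 lay below MM replicate 5 at 8209 (log2 difference 0.78 ± 0.26 SE, limma adjusted p = 0.0483). Without any 1 of MM replicates 5, 6 and 7 or UB replicates 2 and 3, its adjusted p ran from 0.0516 to 0.16.

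The other 7 enzymes were not called. Pfkl, the liver phosphofructokinase subunit, differed by 0.81 ± 0.27 SE at an adjusted p of 0.0502 (limma), and passed without UB replicate 1 (0.0178) or MM replicate 6 (0.018). Ldha, the muscle-type lactate dehydrogenase subunit, differed by 0.36 ± 0.12 SE (0.0543) and passed without MM replicate 5 (0.0293) or UB replicate 2 (0.0486). Tpi1, triosephosphate isomerase, differed by 0.34 ± 0.15 SE (0.12) and passed without UB replicate 1 (0.0352). Of the other 2 tested probe sets of Tpi1, 1 was called higher in UB, at 0.49 (limma adjusted p = 0.0403). The other was not called, at 0.74 (0.0691). Pgk1, which makes the first ATP of the pathway, was at -0.07 ± 0.11 SE, and Pgam1, Pfkm and Pfkp were at 0.15, -0.10 and 0.17.

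Of the oxygen-sensing genes only Egln3, the hydroxylase that HIF itself raises, was called, at 1182, 972, 1469 and 1948 in UB and 293, 325 and 636 in MM. The groups did not overlap (ratio 3.33, log2 difference 1.68 ± 0.31 SE, limma adjusted p = 0.00193). The call was lost when all 16 arrays shared a fit (0.122). Hif1a, the alpha subunit, was at -0.35 ± 0.19 SE and Egln1, its main hydroxylase, at -0.08 ± 0.21 SE. Ankrd37, a small ankyrin protein raised by HIF, was higher in UB, at 2605, 2026, 2217 and 3313 against 969, 1192 and 617, with no overlap (log2 difference 1.44 ± 0.27 SE, limma adjusted p = 0.00213).

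The called decreases in the bud were matrix, pH and stress genes. Ndrg1, a stress-induced growth regulator, stood at 800, 881, 1542 and 927 in UB and 3348, 4153 and 6333 in MM. The groups were well apart (log2 difference -2.11 ± 0.29 SE, limma adjusted p = 0.000223), and its other 2 tested probe sets were also called lower. P4ha2, a catalytic subunit of collagen prolyl hydroxylase, stood at 840, 1239, 1131 and 1090 in UB and 2076, 2795 and 2716 in MM, again without overlap (log2 difference -1.21 ± 0.22 SE, limma adjusted p = 0.00205). Car9, a cell-surface carbonic anhydrase, was dim on all 4 UB arrays, at 13.3, 16, 12.5 and 88.3, and stood at 203, 262 and 166 in MM (log2 difference -1.95 ± 0.40 SE, limma adjusted p = 0.00368). The filter kept Car9 only through the 3 MM arrays, the group where it was high, so its call carries little weight. Ddit4, an inhibitor of the growth kinase mTOR, stood at 1825, 2829, 3095 and 3026 in UB and 5790, 5750 and 3207 in MM (log2 difference -0.84 ± 0.27 SE, limma adjusted p = 0.045). Its groups stayed apart by little, 3095 against 3207, and leaving out any array but MM replicate 7 gave an adjusted p of 0.0586 to 0.148. Mxi1, a Myc antagonist, also did not overlap but missed the threshold, at -0.51 ± 0.18 SE (0.0625), and passed without UB replicate 1 (0.0292). Vegfa, the vessel growth factor, Adm, a vasodilator peptide, P4ha1, the other collagen hydroxylase subunit, and Bnip3, a mitophagy receptor, were at 0.15, -0.28, 0.29 and 0.24 and were not called.

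Markers of other cell types also differed between these groups. Summed endothelial markers ran from 5489 to 8920 in UB and from 16324 to 24239 in MM, with 8 of 9 tested called lower and Flt1 dim on every UB array. Erythroid markers ran from 9200 to 39139 and from 64659 to 73665, with 5 of 8 called lower. Macrophage markers ran from 755 to 929 and from 4420 to 12016, with 4 of 5 called lower and Tyrobp and Aif1 dim on every UB array. The 3' to 5' Gapdh ratio ran from 6.53 to 12.2 in UB and from 22.1 to 69.3 in MM (exact permutation p = 0.0286, adjusted p = 0.171 over 6 tests), while the Actb ratio averaged 13.1 in UB and 13.8 in MM (exact permutation p = 0.743). Their part in the differences was not tested.

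**Figure D2:**
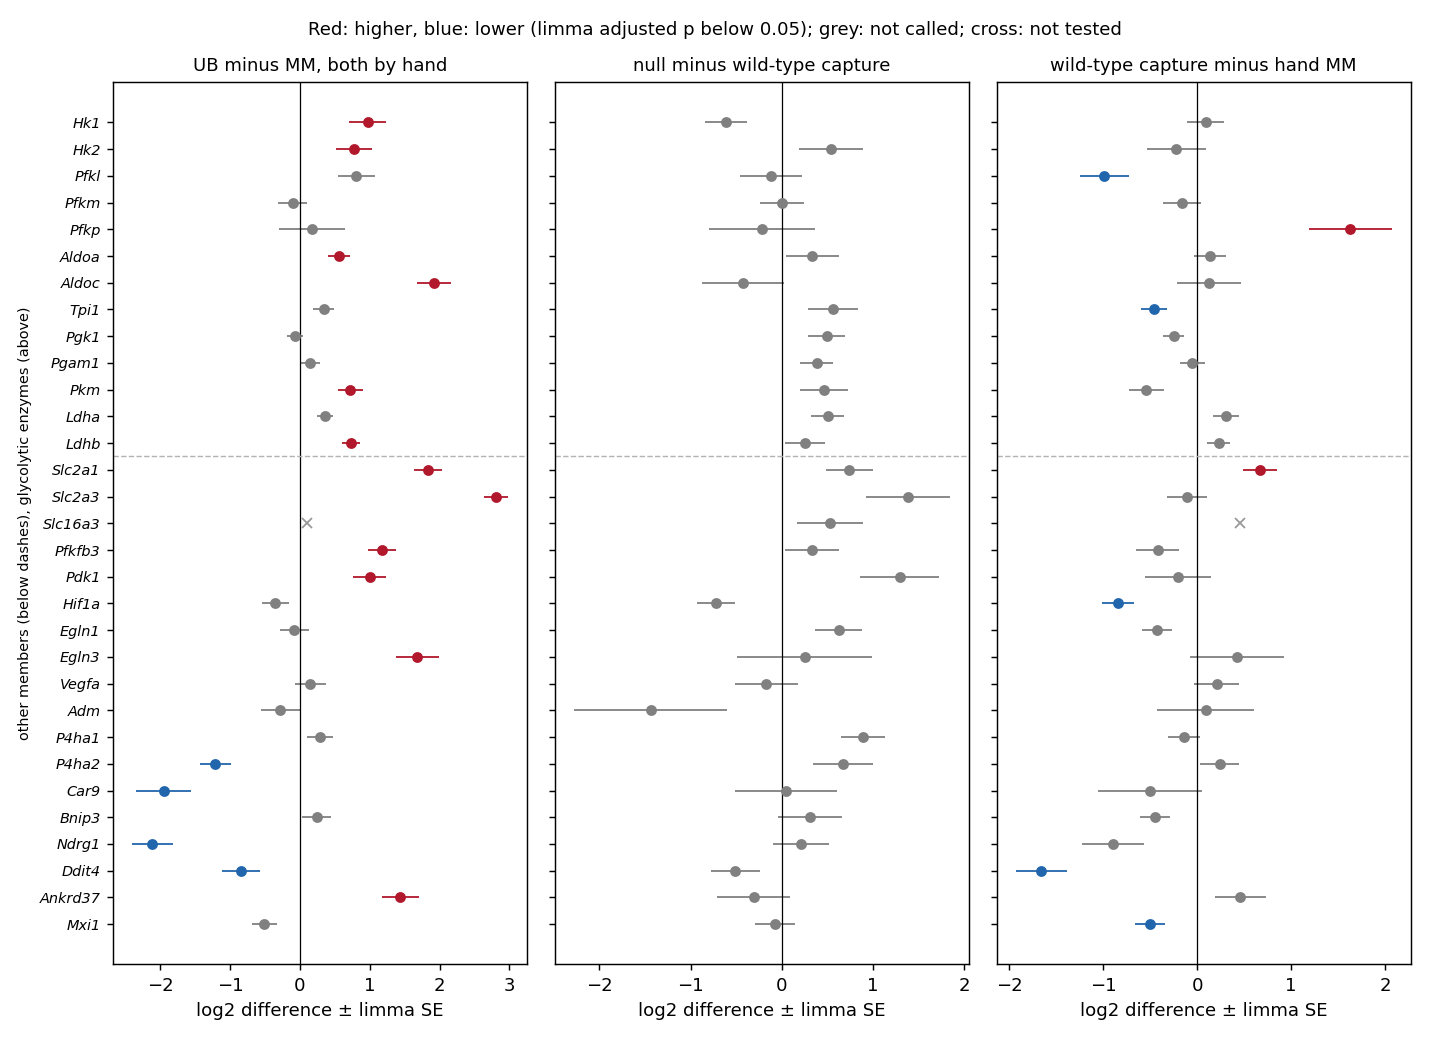
Log2 difference ± limma SE for each gene in the 3 comparisons, red for called higher, blue for called lower, grey for not called, and a cross where a gene was not tested. Calls number 16 in the bud comparison, 0 in the null comparison and 7 in the capture comparison.

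No listed gene was called between null and wild-type captures, and 20 of 31 had a difference above 0, where 41.6% of all genes did. Of 31 genes tested 0 were called by limma, with 9 at an unadjusted p below 0.05, beside 1.74% called (0.748% higher and 0.995% lower) and 19.1% below that p among all genes tested. Of the 9, 7 were higher in the null. The median difference was 0.33 for the enzymes and 0.28 for the others, beside -0.10 for all genes. Groups did not overlap for P4ha1, higher, and for Hk1 and Hif1a, lower, while 3.26% and 5.77% of all genes did so in those directions.

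P4ha1 stood at 4103, 5241, 4636 and 5401 in wild-type and 7583, 13111, 11813, 5810 and 8516 in null captures. Each null array was above each wild-type array (log2 difference 0.89 ± 0.24 SE, limma adjusted p = 0.0826). Pdk1 stood at 2056, 2030, 3875 and 5042 in wild-type and at 2833, 8261, 10048, 6635 and 14031 in null captures, so null replicate 1 lay inside the wild-type range (log2 difference 1.29 ± 0.43 SE, limma adjusted p = 0.146). Egln1 stood at 7341, 8659, 8316 and 8172 in wild-type and at 6169, 13166, 17200, 14068 and 15324 in null captures, and null replicate 1 alone was below every wild-type array (log2 difference 0.62 ± 0.26 SE, limma adjusted p = 0.232). Slc2a1 stood at 9128, 8418, 6079 and 7809 in wild-type and at 14323, 16065, 16558, 6620 and 14679 in null captures, and here null replicate 4 alone was within the wild-type range (log2 difference 0.74 ± 0.26 SE, limma adjusted p = 0.162). Slc2a3 stood at 2481, 3093, 1978 and 2610 in wild-type and at 22374, 4879, 3090, 7353 and 4915 in null captures. Null replicate 1 was far above the other null arrays (log2 difference 1.38 ± 0.46 SE, limma adjusted p = 0.144), and without it the difference was 0.94 (0.0539). Other tested probe sets were not called either, at 0.95 and 1.12 for Slc2a1 and 1.90 for Slc2a3. For Pdk1 they were at only 0.52 and 0.07, and for Egln1 at 0.47, again not called.

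Hif1a, in contrast, stood at 5477, 4340, 6177 and 4746 in wild-type and 3871, 3558, 3580, 2647 and 2212 in null captures. All null arrays were lower (log2 difference -0.72 ± 0.21 SE, limma adjusted p = 0.111), but the other probe set tested for the gene differed by only -0.09 and had an adjusted p of 0.882. Hk1 stood at 2287, 2300, 2040 and 2331 in wild-type and at 1804, 1467, 1608, 1626 and 932 in null captures, again without overlap (log2 difference -0.61 ± 0.23 SE, limma adjusted p = 0.194). Of the other enzymes, Ldha differed by 0.50 ± 0.18 SE (0.169), Pgk1 by 0.49 ± 0.20 SE (0.223) and Tpi1 by 0.56 ± 0.27 SE (0.3). Other tested probe sets of Pgk1 were at 0.24 and 0.76 and those of Tpi1 at 0.50 and -0.16, none called. P4ha2 was at 0.67 ± 0.33 SE, and Adm, which ran from 24.9 to 1633 in the null, was at -1.44 ± 0.84 SE. The other 19 genes lay between -0.51, for Ddit4, and 0.54, for Hk2.

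Leaving out null replicate 1 called 6 of the genes, where 6.75% of all genes were then called. They were Egln1 (0.87, limma adjusted p = 0.00598), Pdk1 (1.63, 0.0169), Tpi1 (0.80, 0.028), P4ha1 (0.95, 0.041) and Pgk1 (0.63, 0.0483) higher, and Hif1a (-0.80, 0.0443) lower. Leaving out null replicate 4 called Slc2a1 (0.98, 0.0204) and P4ha1 (1.05, 0.0378), where 2.21% of all genes were called. Leaving out any other array called none. With all 16 arrays in one fit Slc2a3, Pdk1, Hif1a and P4ha1 were called, where 7.34% of all genes were. Macrophage markers ran from 11156 to 21547 in wild-type and from 1168 to 14069 in null captures, with 1 of 7 called lower, and no other marker list had a call. Their part in the differences was not tested.

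**Figure D3:**
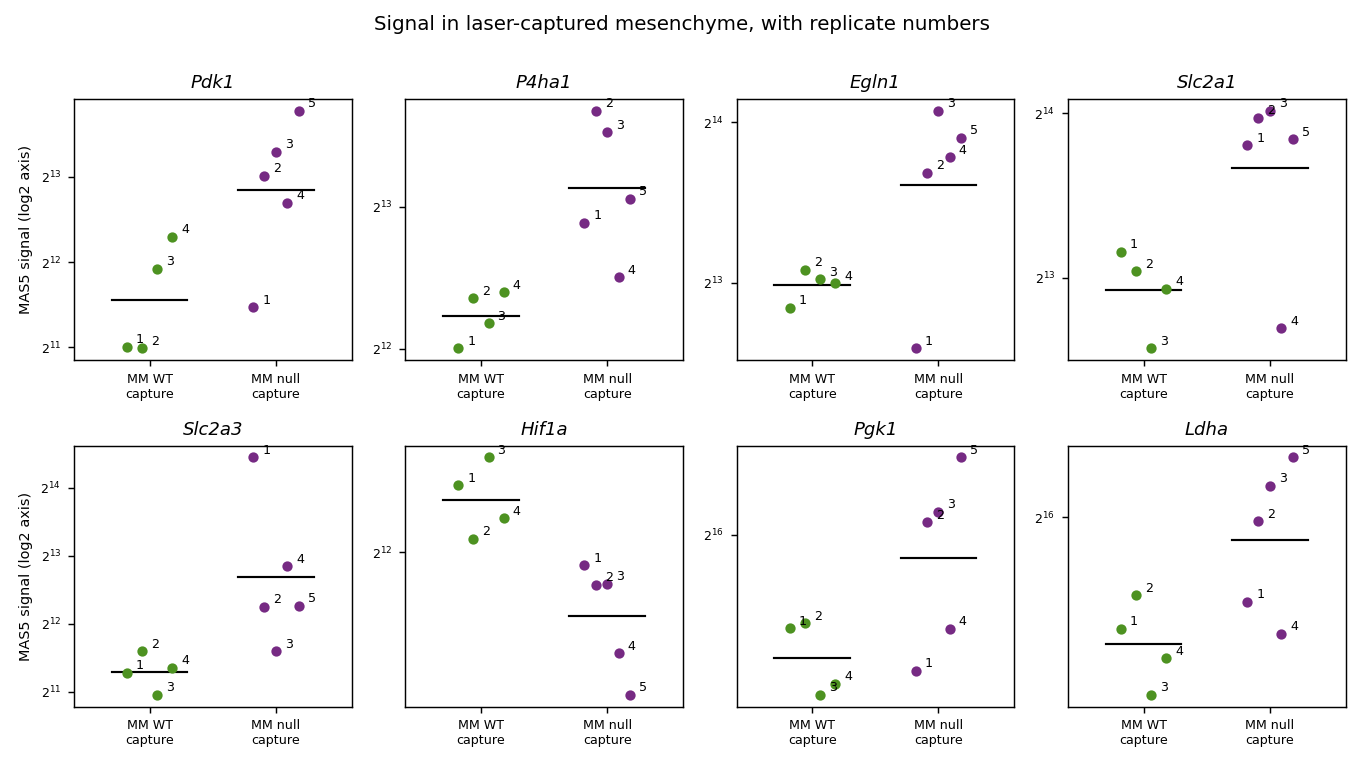
MAS5 signal (log2 axis) in the laser captures, with points labelled by replicate number. P4ha1 lies between 4103 and 5401 in wild-type captures and between 5810 and 13111 in null captures.

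The null arrays spread more widely than those of the other groups. The median deviation of an array's enzymes from their group mean, on the log2 scale, ran from -0.56 in null replicate 1 to 0.40 in null replicate 5, and lay within 0.19 of 0 on every array of the other 3 groups. For the other genes it ran from -0.35 in null replicate 1 to 0.34 in null replicate 3. The same median over all genes stayed within 0.06 of 0 on all 16 arrays. That median pools 12987 genes against 13 enzymes and 18 others, so it gives no background for their spread. The null arrays also spread more widely over all genes, with median correlations to their group of 0.844 to 0.905 against 0.941 to 0.98 for the arrays of the other groups, so the wider spread is not particular to these genes.

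**Figure D4:**
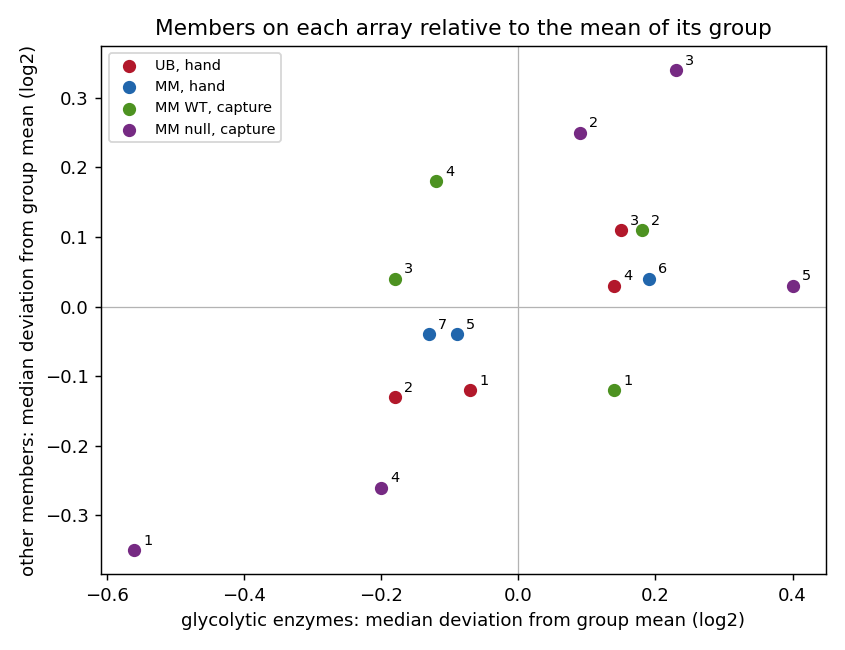
Median deviation from the group mean (log2) on each array, with the enzymes on the horizontal axis and the other listed genes on the vertical axis. Null replicate 1 is lowest, at -0.56 for the enzymes and -0.35 for the others.

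In the last comparison, of captured against hand-dissected tissue without mutation, Ddit4, Hif1a, Pfkl, Tpi1 and Mxi1 were lower and Slc2a1 and Pfkp higher in the captures. Of 30 tested, 2 were higher and 5 lower in the captures, or 23.3% beside 23.5% of all genes, of which 13.6% were higher and 9.88% lower. That share is near the background. Groups did not overlap for 2 genes higher and 8 lower, as for 19.5% and 14.6% of all genes. With arrays centred on their medians, 1 gene was called higher and 10 lower, where 23.1% of all genes were called. These arrays also serve in the other comparisons. Ddit4 had the largest difference of the 7 and kept its call under all 15 alternatives, at 1390, 1095, 1847 and 1707 in captures and 5790, 5750 and 3207 in hand-dissected MM, with no overlap (log2 difference -1.66 ± 0.27 SE, limma adjusted p = 0.00206). Summed immediate-early genes, a class induced within minutes of stimulation, ran from 16204 to 17888 in captures and from 89819 to 147105 in hand-dissected MM, with 6 of 8 called lower. Bud markers were higher in captures for 8 of 8, erythroid markers for 5 of 8, macrophage markers for 2 of 6 and endothelial markers for 1 of 10. Of 5 stromal markers 1 was higher and 2 lower, and of 6 mesenchyme markers 1 was lower. The 3' to 5' Gapdh ratio averaged 19.8 in captures and 42.5 in hand-dissected MM (exact permutation p = 0.0857, adjusted p = 0.257). The Actb ratio averaged 17.1 and 13.8 (exact permutation p = 0.229). The part of any of these in the differences was not tested.

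Slc2a1 was higher in captures, at 9128, 8418, 6079 and 7809 against 4658, 5352 and 4623 (log2 difference 0.67 ± 0.18 SE, limma adjusted p = 0.0193), and Slc2a3 was not called, at -0.11 ± 0.21 SE. Without capture replicate 1 or 2 or MM replicate 7 the adjusted p for Slc2a1 was 0.0503, 0.0554 or 0.0731, and the call was also lost with median centring. Pfkp, the platelet phosphofructokinase subunit, was higher, at 1699, 1495, 1052 and 1303 against 153, 493 and 898 (log2 difference 1.63 ± 0.44 SE, limma adjusted p = 0.0218), with an adjusted p of 0.05 without capture replicate 2. Pfkl was lower, at 5383, 5547, 5546 and 3972 against 6360, 14650 and 11069 (log2 difference -0.99 ± 0.26 SE, limma adjusted p = 0.0175), and at 0.069 without MM replicate 6 and 0.0677 without MM replicate 7. Hif1a differed by -0.84 ± 0.17 SE (limma adjusted p = 0.006), while its other 2 tested probe sets were at -0.91 and -0.01 and were not called. Tpi1 (-0.46 ± 0.14 SE, 0.0323) and Mxi1 (-0.50 ± 0.16 SE, 0.0392) were the other decreases, and the 23 genes not called lay between -0.90, for Ndrg1, and 0.46, for Ankrd37. Among these, Ndrg1 and Pgk1 each had another probe set called lower, at -1.48 (limma adjusted p = 0.0455) and -0.88 (0.0123). A further probe set of each was not called, at -0.11 and 0.15. Tpi1 was at 0.0523 to 0.0998 without MM replicate 5, 6 or 7 or capture replicate 4. Mxi1 was at 0.0645 to 0.125 without any array but MM replicate 5. In all, 4 genes were called without MM replicate 6, 4 without capture replicate 2 and 3 without MM replicate 7. The shares of all genes called in these fits were 20.2%, 16.6% and 12.8%, beside 23.5% with every array of the 2 groups. With all 16 arrays in one fit Ddit4 and Hif1a alone were called, where 11.7% of all genes were. With the mean of a gene's probe sets Pfkp, Tpi1, Hif1a and Mxi1 lost their calls, where 15.8% of all genes were called.

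Paralogs were set against each other as log2 ratios within each array, for 8 pairs in 3 comparisons. None of the 24 passed (exact permutation test, two-sided, lowest adjusted p = 0.0847), and 4 arrays against 3 allow no raw p below 0.0286. Between UB and MM the ratio did not overlap, at that lowest p, for Slc2a3 over Slc2a1 (difference 0.98), Aldoc over Aldoa (1.36), Ldhb over Ldha (0.37), Egln3 over Egln1 (1.76) and P4ha2 over P4ha1 (-1.49). Between captures and hand dissection the same held for Slc2a3 over Slc2a1 (-0.79), Pfkm over Pfkl (0.83) and Pfkp over Pfkl (2.62). In the null, Aldoc over Aldoa differed by -0.75 from wild-type captures with overlap (exact permutation p = 0.0317), at the same adjusted p.

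Genes of the same pathways outside the list were counted from separate lists. Against 28.5% of all genes called between UB and MM, the shares called were 30.0% of the HIF machinery, 33.3% of other glycolysis and pyruvate genes, 48.3% of other HIF targets and 16.7% of pentose phosphate genes. Of 10 genes of the HIF machinery, 0 were higher and 3 lower in UB: Epas1, the HIF2 alpha subunit (-2.12 ± 0.36 SE, limma adjusted p = 0.00119), Egln2 (-1.03 ± 0.17 SE, 0.00104) and Crebbp, a coactivator (-0.73 ± 0.24 SE, 0.0465). Epas1 is also known as an endothelial gene. Of 29 other HIF targets tested, 9 were higher and 5 lower, with Stc2 (2.25 ± 0.19 SE) and Vldlr (2.20 ± 0.23 SE) up and the matrix crosslinker Lox (-4.44 ± 0.40 SE) and the vessel growth factor Pgf (-4.05 ± 0.31 SE) down. Pgf was dim on all 4 UB arrays, and Lox on 3 of them. Of 15 other glycolysis and pyruvate genes tested, 3 were higher and 2 lower, led by the enolase Eno2 (1.57 ± 0.22 SE), the monocarboxylate transporter Slc16a7 (1.22 ± 0.25 SE), Hk3 (-1.11 ± 0.36 SE) and Pdk4 (-1.07 ± 0.31 SE). Hk3 and Pdk4 were weak, averaging 83.9 and 110 in UB against 211 and 259 in MM. Each exceeded the array median on only 1 of 4 UB arrays. Like Pgf and Lox, they passed the filter through the MM arrays. Of 6 pentose phosphate genes Taldo1 alone was called, higher (0.96 ± 0.22 SE).

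In the null these lists gave 1 call, the cell cycle gene Ccng2, lower (-1.06 ± 0.24 SE, limma adjusted p = 0.049), or 3.57% of 28 other HIF targets beside 1.74% of all genes. Between captures and hand dissection, 2 of the HIF machinery were lower, Hif3a and Egln2, at -1.07 ± 0.28 SE and -0.68 ± 0.16 SE. Other HIF targets were 2 higher and 3 lower of 29, other glycolysis and pyruvate genes 2 higher and 1 lower of 15, and Taldo1 was higher of 6 pentose phosphate genes. The shares called, 2 of 10, 5 of 29, 3 of 15 and 1 of 6, were each below the 23.5% of all genes. Gapdh had only control probe sets, whose 3' signal averaged 50667 ± 6965 (SD, n = 4) in UB, 44474 ± 4519 (SD, n = 3) in hand-dissected MM, 46927 ± 6028 (SD, n = 4) in wild-type and 53371 ± 16974 (SD, n = 5) in null captures.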

How the data were processed

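Per the labels, each sample was hybridised to 1 Affymetrix MOE430_v2 array, and per the submitters' processing notes the authors used MAS5. The deposited values are linear intensity signals of 45101 probe sets, scaled by the authors to a 2% trimmed mean of 1500 on each array, as the values show. Signals were analysed as log2(signal + 36.3), the offset being the 25th percentile of all values. A probe set was tested where it exceeded the array median on a number of arrays no lower than the smaller group's size. Each of the 3 comparisons was fitted on its own arrays with limma 3.58.1 (R 4.3.3, lmFit, eBayes with trend), adjusted over all tested probe sets, and called below 0.05. Fits that leave out an array kept the same probe sets. The fit was tested on simulated data. The number of arrays limits the precision. Symbols came from GEO's platform annotation: 34945 probe sets have 1, 932 several and 9160 none. Every listed gene is named, and up to 4 called genes of each pathway list and comparison with the largest differences. The members and lists were chosen with earlier results of these data known. Same-numbered wild-type and null captures did not deviate together (correlations from -0.05 to 0.07), so numbers were not taken as pairs. Alternatives were other offsets, normalizations, filters, joint fitting, array weights, probe set means and left-out arrays.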

Additional observations from a re-analysis of the deposited data

Results flagged for a closer look

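In groups of 4 or 5 arrays, 11 of 89 gene and group sets tested had an array set apart from the rest of its group by Dixon's criterion on the log2 scale, leaving out groups that were mostly dim, which chance meets in about 1 in 20. In null captures, replicate 1 was high for Pfkp, at 5949.6 against 555.0 to 1032.0. It was low for Egln1, at 6169.0 against 13166.1 to 17199.9, and for Ndrg1, at 1700.4 against 2911.9 to 3612.4. Null replicate 4 was low for Slc2a1, at 6619.8 against 14322.6 to 16557.7. In wild-type captures, replicate 4 was low for Pfkl (3972.2 against 5383.3 to 5547.4) and high for Ldhb (34733.1 against 28767.6 to 29582.1), and replicate 3 was low for Hk1 (2040.3 against 2286.8 to 2330.5). In the bud, replicate 2 was low for Bnip3 (14715.8 against 23275.9 to 25229.4) and Adm (535.9 against 729.0 to 774.3). Bud replicate 1 was low for Ddit4 (1825.3 against 2828.9 to 3095.4), and bud replicate 3 was high for Pfkp (841.3 against 381.4 to 405.6).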

How the results depend on the processing

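No called direction reversed under any alternative, and 61 uncalled differences changed sign. Parentheses below give the share of all genes called under the same settings. In the bud comparison 16 genes were called (28.5%), and 13 to 21 under most alternatives (17.5% to 47.9%). All 16 arrays in one fit gave 10 (19.3%), and leaving out 1 array gave 11 to 18 (20.2% to 38.1%). In the null comparison 0 were called (1.74%), 4 with all 16 arrays in one fit (7.34%) and 3 with array weights (6.56%). Leaving out 1 array there gave 0 to 6 (0.271% to 6.75%). With the replicate number as a block, although the numbers did not pair the arrays, 0 were called, beside 0.238% of all genes. In the capture comparison 7 were called (23.5%), and 11 with median centring (23.1%), of which 1 was higher and 10 lower. There were 2 with all 16 arrays in one fit (11.7%) and 3 with the mean of a gene's probe sets (15.8%). With 1 array left out, 3 to 7 were called (12.8% to 23.9%). Median centring moved the median over all genes to 0.14, 0.20 and -0.12 in the bud, null and capture comparisons. The enzymes' median then was 0.63 in the null and -0.25 in the capture comparison. The cause of these changes was not tested. Dim probe sets such as Car9 in the bud limit their fold.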
